A study of Mus musculus with 12 samples.

Results

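The genes described here are the nuclear genes of oxidative phosphorylation in mouse embryonic stem cells. They were chosen by symbol: complex I genes that begin with Nduf, a letter and a number, the succinate dehydrogenase genes Sdha to Sdhd, genes that begin with Uqcr, the cytochrome c oxidase genes Cox4 to Cox8, and genes that begin with Atp5. Ndufa4 and Ndufa4l2 are counted with complex IV, to which the Ndufa4 protein belongs. Of 23412 genes in the count table, 84 met this rule. They divide into 35 genes of complex I, 4 of complex II, 8 of complex III, 20 of complex IV and 15 of complex V, plus Atp5s and Atp5sl, 2 genes whose products are not core subunits of the enzyme their symbols name.

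Oxidative phosphorylation takes place in the inner mitochondrial membrane. Complexes I and II pass electrons from NADH and succinate to coenzyme Q, complex III passes them on to cytochrome c, and complex IV hands them to oxygen, while complex V uses the proton gradient that complexes I, III and IV build to make ATP. Most subunits are encoded in the nucleus and imported, a small set is encoded in mitochondrial DNA, and embryonic stem cells in serum draw heavily on glycolysis while keeping an active respiratory chain.

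The series asks how transcription depends on HMGN1 and HMGN2, abundant proteins that bind nucleosomes. Poly-A RNA was sequenced from 4 groups of male v6.5 mouse embryonic stem cells grown on gelatin with serum and LIF, with 3 libraries in each group. Wild-type cells (WT) were compared with Hmgn1-/- cells, which carry a homozygous deletion of a single base, with Hmgn2-/- cells, which carry a homozygous insertion of a single base, and with Hmgn1-/-Hmgn2-/- cells, obtained when Hmgn1 was edited in cells already lacking Hmgn2. Each mutant line grew from a single edited cell, so a genotype and its clone cannot be told apart, and the double knockout shares its history with the Hmgn2-/- line.

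Total counts per library were 31448468, 17614490 and 28524108 in WT replicates 1 to 3 and 25953244, 21059862 and 21993042 in Hmgn1-/- replicates 1 to 3. They were 25908890, 26486535 and 17337908 in Hmgn2-/- and 31005479, 22151507 and 26410485 in Hmgn1-/-Hmgn2-/- replicates 1 to 3. The 84 genes took between 1.16% (Hmgn2-/- replicate 1) and 1.42% (Hmgn2-/- replicate 3) of all counts. Values below are counts scaled to a library size of 1000000 (CPM) with trimmed means of M values, given for replicates 1, 2 and 3 in that order. A gene is said to have risen or fallen where edgeR's quasi-likelihood test gave, after Benjamini-Hochberg adjustment over all genes tested, an adjusted p under 0.05.

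The targeted transcripts followed the labels. Hmgn1 stood at 661, 594 and 612 CPM in WT, at 138, 139 and 142 CPM in Hmgn1-/-, at 546, 556 and 640 CPM in Hmgn2-/- and at 21.6, 19.9 and 21.5 CPM in the double knockout. Hmgn2 stood at 137, 121 and 119 CPM in WT, at 106, 113 and 109 CPM in Hmgn1-/-, at 50.9, 54.5 and 53.7 CPM in Hmgn2-/- and at 53.9, 50.5 and 54.5 CPM in the double knockout. Hmgn1 transcript was therefore low in both lines edited at Hmgn1 and Hmgn2 transcript in both lines edited at Hmgn2, with no overlap with WT. By edgeR's quasi-likelihood test, Benjamini-Hochberg adjusted, the log2 fold change of Hmgn1 was -2.16 in Hmgn1-/- (adjusted p 3.36e-11), -0.10 in Hmgn2-/- (0.493) and -4.89 in the double knockout (8.56e-15). For Hmgn2 it was -0.21 in Hmgn1-/- (adjusted p 0.0275), -1.24 in Hmgn2-/- (5.73e-06) and -1.25 in the double knockout (1.95e-08). Protein was not analysed here.

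The label of embryonic stem cells was checked against 8 pluripotency genes, and all 8 were tested. Their summed level was 6369, 6432 and 6612 CPM in WT, 6387, 6635 and 6937 CPM in Hmgn1-/-, 6007, 6478 and 7251 CPM in Hmgn2-/- and 5976, 6516 and 6719 CPM in the double knockout. The groups overlapped, and the most abundant of these genes per length was Dppa5a, at 2353 CPM per kb in WT. Of the 8, 2 rose and 1 fell in Hmgn1-/-, 2 rose and 1 fell in Hmgn2-/- and 3 rose and 1 fell in the double knockout, or 37.5%, 37.5% and 50% called, beside 28.4%, 18.9% and 28.98% of all genes. Klf4 rose in all 3 lines (log2 fold changes 0.93, 0.69 and 0.74 in Hmgn1-/-, Hmgn2-/- and the double knockout) and so did Utf1 (0.29, 0.27 and 0.21), Tdgf1 rose in the double knockout (0.16), and Nanog fell in all 3 (-0.32, -0.50 and -0.45).

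Markers of primitive endoderm, an extraembryonic lineage that embryonic stem cells can enter, moved with genotype. In Hmgn1-/- all 9 of 9 rose (median log2 fold change 2.44), where 13.3% of all genes tested rose. In the double knockout 9 of 9 rose too (3.73), where 13.5% of all genes did. In Hmgn2-/- 7 of 9 of these markers rose (median 2.81), where 7.63% of all genes did. The summed level of the 9 markers was 142, 180 and 185 CPM in WT, 436, 364 and 368 CPM in Hmgn1-/-, 504, 459 and 332 CPM in Hmgn2-/- and 932, 917 and 853 CPM in the double knockout. Every mutant library exceeded every WT library, and the double knockout exceeded both single knockouts. The most abundant was Col4a1, at 11.5 CPM per kb in WT, and none of the 9 was at 0 in all libraries. More cells of a type and more RNA per cell cannot be told apart in bulk RNA, and the part of these genes in the values below was not tested.

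Summed levels of fibroblast and macrophage markers were lower in all mutant lines. Of all genes tested, 15.1%, 11.2% and 15.5% fell in Hmgn1-/-, Hmgn2-/- and the double knockout, which bears on the counts of this paragraph. Of 10 fibroblast genes 6 were tested and 5 fell in each line. In Hmgn1-/-, Hmgn2-/- and the double knockout 1 of the 6 had an estimate above 0 (0.13, 0.32 and 0.37). The summed level of the 10 was 153, 165 and 165 CPM in WT, 97.4, 98.2 and 89.9 CPM in Hmgn1-/-, 115, 112 and 112 CPM in Hmgn2-/- and 124, 119 and 117 CPM in the double knockout. Vim was the most abundant of them (mean 137 of 161 CPM in WT), Lum had 0 counts in every library and Dcn had at most 3. Macrophage genes, 5 of 6 of them in the table, summed to 22.0, 30.95 and 33.4 CPM in WT and to between 6.34 and 11.7 CPM in the mutant libraries. Of these 5 genes 2 were tested, and 2 fell in each line. Cd68 was the most abundant (mean 25.6 of 28.8 CPM in WT) and Lyz2 had at most 3 counts in any library. The 8 genes of muscle and heart, tissues with their own isoforms of complex IV, summed to 28.0, 30.1 and 32.1 CPM in WT and to 34.1, 36.2 and 38.0 CPM in the double knockout, with Des the most abundant. Of the 4 tested, 2 rose and 2 fell in the double knockout (13.5% and 15.5% of all genes) and 1 fell in each single knockout. The part of these lists in the values of the respiratory genes was not tested.

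In WT the respiratory genes were among the abundant transcripts. Divided by transcript length, their median level was 93.4 CPM per kb, where the median of all 23027 genes with a length was 0.911 CPM per kb. Of the 84 genes, 39 stood above 100 CPM per kb and 5 below 1 CPM per kb. Levels differed between the enzymes: the median per length was 68.6 CPM per kb for complex I, 87.8 for complex II, 143 for complex III, 133 for complex IV and 218 for complex V. Complex V had the highest median and complex I the lowest, while single genes of different complexes overlapped widely. The most abundant gene of each enzyme per length was Ndufa7 (264 CPM per kb) in complex I, Sdhd (111) in complex II, Uqcr10 (257) in complex III, Cox4i1 (638) in complex IV and Atp5b (1054), which encodes the catalytic beta subunit, in complex V. Divided by coding length these were 411, 286, 581, 937 and 1272 CPM per kb, and by that measure Uqcrq (660) exceeded Uqcr10 and both Cox7c (1111) and Cox8a (1102) exceeded Cox4i1.

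**Figure D1:**
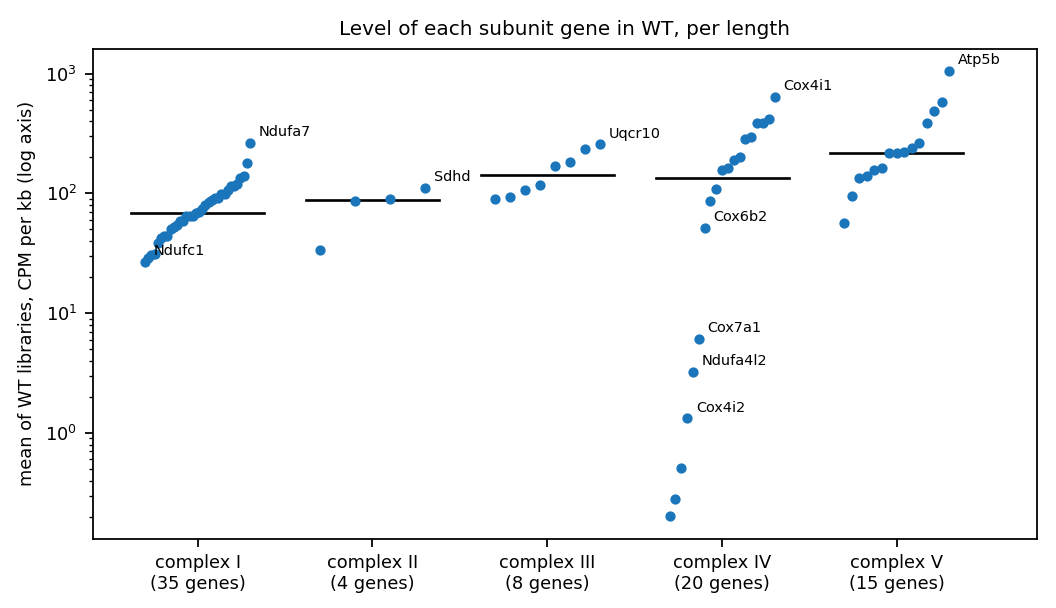
Level of each subunit gene in WT, as the mean of 3 libraries in CPM per kb of transcript on a log axis, grouped by complex, with a black line at each complex's median over all its genes. Ndufs5 and Cox8b, at 0 in WT, are not drawn, and Atp5b stands highest at 1054 CPM per kb.

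Of the 84 genes, 79 passed the filter on low counts in each comparison with WT. The 5 that did not pass include 4 paralogs of complex IV subunits whose products belong to striated muscle, testis or other differentiated tissues. Cox6a2 had 1 to 6 counts per library, Cox7b2 had 1 to 16, Cox8c had 0 to 7 and Cox8b had 0 to 1. Their broadly expressed counterparts Cox6a1, Cox7b and Cox8a made up at least 99.02% of each set per length in every library. The remaining gene was Ndufs5, an accessory subunit of complex I, which was at 0 counts in all 12 libraries. Its transcript shares 27.0% of its 100-base stretches with BC002163, which had 172 to 325 counts per library. Whether reads of Ndufs5 were assigned elsewhere or dropped was not tested.

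Shared sequence limits some of the other values too. Of the 84 genes, 19 share at least 1 stretch of 100 bases with another gene, and 14 share over 10% of their stretches, up to 100% for Atp5g2. Exons of 29 of the 84 overlap exons of another gene. Among genes described below, Ndufb6 overlaps Smim27 over 39.0% of its exon bases, Ndufa13 overlaps Tssk6 over 30.0%, Ndufb9 overlaps Gm49356 on the same strand over 19.5% and Ndufb11 overlaps Rbm10 over 12.9%. Of the 14 genes called below, Ndufs3 shares 19.85% of its stretches of 100 bases with another gene, Ndufb9 17.02% and Atp5g1 6.2%, and the others share none. The strand setting of the deposited counts was not given.

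Before the comparisons, the libraries were set side by side, and Hmgn2-/- replicate 3 stood apart. Of 83 members with counts, 68 had their highest value of all 12 libraries there. Their summed level was 12622, 11992 and 12271 CPM in WT, 12136, 12610 and 13244 CPM in Hmgn1-/-, 11601, 12480 and 14689 CPM in Hmgn2-/- and 11700, 12300.3 and 13116 CPM in the double knockout. The 3 Hmgn2-/- libraries thus span the lowest and the highest sum of the series. In that library 11.4% of counts fell on transcripts under 1 kb, against 8.74% to 10.1% in the other libraries, and 13.8% on transcripts over 5 kb, against 15.8% to 18.1%. Most respiratory transcripts are short, and the part of this shift in the Hmgn2-/- values was not tested. Within its group replicate 3 also held the highest value for 70 of 83 members in Hmgn1-/- and 73 of 83 in the double knockout, where 10.1% and 9.91% of its counts fell on transcripts under 1 kb. In WT replicate 1 held the group's highest value for 60 members and replicate 3 for 17. These counts of highest values were not made over all genes, so they do not show whether members differ from other genes. Replicates 1 and 2 had 9.14% and 9.53% of counts on transcripts under 1 kb in Hmgn1-/-, 8.74% and 9.37% in Hmgn2-/- and 8.74% and 9.35% in the double knockout, all below the 9.61% to 10.1% of the WT libraries. Where a call of a respiratory gene described below changes in Hmgn2-/- without replicate 3, the value is given with it. For the other gene lists, calls without that library are not given, so their Hmgn2-/- calls are not shown to hold without it.

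Summed by enzyme, most groups overlapped. Complex I summed to 2588, 2442 and 2504 CPM in WT, 2434, 2546 and 2713 CPM in Hmgn1-/-, 2294, 2513 and 3066 CPM in Hmgn2-/- and 2330.2, 2468 and 2649 CPM in the double knockout. Complex II summed to 618, 588 and 581 CPM in WT, 629, 644 and 673 CPM in Hmgn1-/-, 613, 645 and 674 CPM in Hmgn2-/- and 615, 620 and 657 CPM in the double knockout. For complex III the sums were 1239, 1152 and 1191 CPM in WT, 1185, 1239 and 1297 CPM in Hmgn1-/-, 1150.2, 1233 and 1473 CPM in Hmgn2-/- and 1192, 1197 and 1293 CPM in the double knockout. Complex II was the enzyme whose sums lay above all WT libraries in every Hmgn1-/- library, while the other enzymes' groups overlapped. Complex IV summed to 2269.9, 2099 and 2202 CPM in WT, 2069.8, 2167 and 2309 CPM in Hmgn1-/-, 1952, 2132 and 2720.3 CPM in Hmgn2-/- and 1964, 2130.1 and 2313 CPM in the double knockout. Complex V, the most abundant, summed to 5854, 5662 and 5744 CPM in WT, 5763, 5957 and 6199 CPM in Hmgn1-/-, 5544, 5904 and 6702 CPM in Hmgn2-/- and 5554, 5837 and 6157 CPM in the double knockout. Expressed as a percentage of the WT mean, the sum of all members was 103% in Hmgn1-/-, 105% in Hmgn2-/- (97.9% without replicate 3) and 101% in the double knockout.

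**Figure D2:**
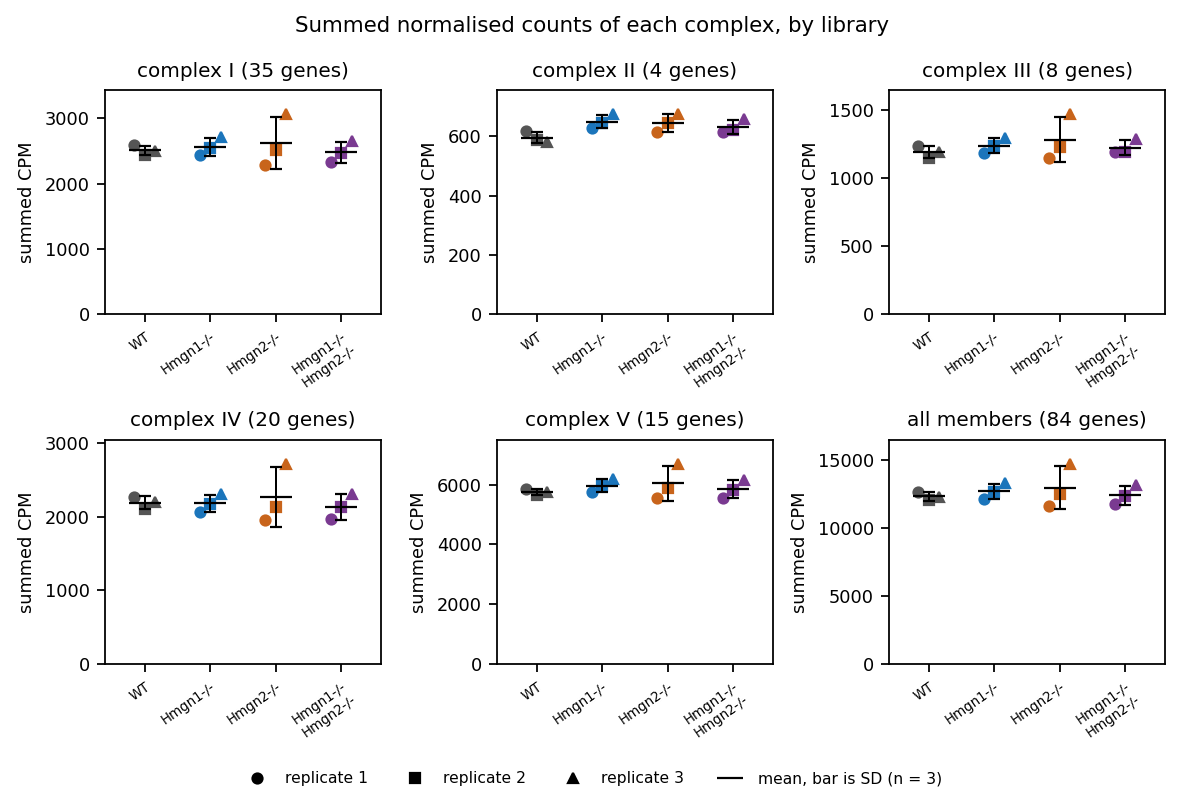
Summed normalised counts (CPM) of each complex and of all 84 genes in every library, with the mean and SD of each group of 3. Hmgn2-/- replicate 3 is the highest library in all 6 panels.

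The 3 lines against WT share the WT libraries, so their values are given side by side. In Hmgn1-/- 5 of 79 members rose, where 13.3% of all genes tested rose, and 5 fell, where 15.1% of all genes fell. In Hmgn2-/- 0 rose (7.63% of all genes) and 1 fell (11.2%) by edgeR. There 7 members had an unadjusted p under 0.05, and DESeq2 called 1 higher (Ndufa13) and 2 lower (Ndufv3 and Cox6b2). In the double knockout 2 rose (13.5% of all genes) and 8 fell (15.5%). In either direction 12.7%, 1.27% and 12.7% of tested members were called, beside 28.4%, 18.9% and 28.98% of all genes, and no test compared these shares. With the limits the study set for differential expression, an adjusted p under 0.01 and a log2 fold change of at least 1 in size, edgeR called 0 members in each line, where 5.98%, 5.15% and 6.3% of all genes passed. DESeq2 also called 0 at these limits, and 17, 7 and 15 members had an unadjusted p under 0.05 in edgeR.

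Fold changes of the members were small. The median log2 fold change was 0.01 in Hmgn1-/-, 0.05 in Hmgn2-/- and -0.03 in the double knockout, where all genes tested gave 0.00, 0.01 and 0.00. Single libraries turned the sign of these medians. Without Hmgn2-/- replicate 3 the Hmgn2-/- median was -0.09, with 26 of 79 members above 0 in place of 61. The Hmgn1-/- median was -0.04 without Hmgn1-/- replicate 3 and -0.02 without WT replicate 2, and that of the double knockout was 0.02 without double knockout replicate 1 and 0.00 without WT replicate 1. In size, the median was 0.07, 0.09 and 0.08, against 0.18 in all 3 comparisons for all genes. For mitochondrial ribosomal protein genes, also short and abundant, it was 0.061, 0.103 and 0.081. It was 0.054, 0.052 and 0.091 for cytoplasmic ribosomal protein genes and 0.124, 0.116 and 0.114 for assembly factors of the respiratory chain. The 95% interval of the change lay within 1.5-fold of WT for 74, 73 and 74 of 79 members, or 93.7%, 92.4% and 93.7%, where 63.8%, 59.3% and 62.8% of all genes met that bound. Other sets met it about as often as the members or more often. The shares were 100%, 98.7% and 100% for mitochondrial ribosomal protein genes and 93.98% in each line for cytoplasmic ones. For assembly factors they were 95.1%, 92.7% and 95.1%. No test compared these shares. These intervals cover the spread between these libraries and counting error, and no other source. Of genes with a transcript under 1 kb that are not members, 19.1%, 12.2% and 20.8% were called in either direction. By direction, 55 rose and 125 fell in Hmgn1-/-, 32 and 85 in Hmgn2-/- and 45 and 156 in the double knockout. Median changes by enzyme in Hmgn1-/-, Hmgn2-/- and the double knockout were 0.00, 0.05 and -0.04 for complex I, 0.12, 0.12 and 0.06 for complex II, 0.06, 0.12 and 0.03 for complex III, -0.02, 0.04 and -0.05 for complex IV and -0.01, 0.05 and -0.02 for complex V.

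**Figure D3:**
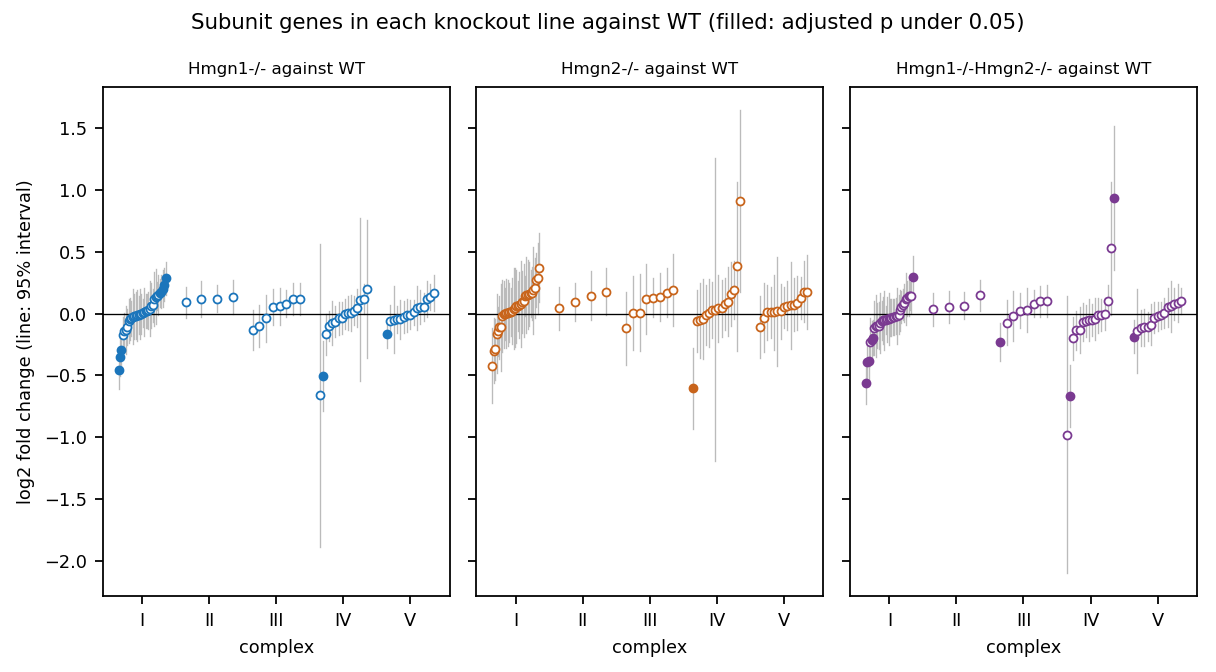
Log2 fold change of every tested subunit gene against WT, by complex, in each mutant line, with grey lines for 95% intervals and filled points for an adjusted p under 0.05. Most points lie near 0, and the filled points are mainly in complex I.

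Single libraries moved these counts. In Hmgn1-/- the 5 members that rose became 2 without Hmgn1-/- replicate 2, 2 without Hmgn1-/- replicate 3, 9 without WT replicate 1 (where 31.95% of all genes were called in place of 28.4%), 2 without WT replicate 2 and 1 without WT replicate 3. Calls over all genes dropped as well in the fits that lost calls, to 20.6% and 24.8% without Hmgn1-/- replicates 2 and 3 and to 22.2% and 20.3% without WT replicates 2 and 3. With replicate number as a block 9 rose, among them Atp5b, Atp5j2 and Atp5sl, while 34.8% of all genes were called in place of 28.4%. The 1 member that fell in Hmgn2-/- became 10 without Hmgn2-/- replicate 3 (among them Ndufv3, Ndufa11, Ndufb11, Ndufb9, Uqcr10, Cox6b2, Cox8a and Atp5g1, while 24.6% of all genes were called in place of 18.9%), and 0 without Hmgn2-/- replicate 2, WT replicate 1 or WT replicate 3 (12.1%, 17.9% and 10.99% of all genes). The 0 that rose there became 2 without Hmgn2-/- replicate 1 (17.4% of all genes called) and 1 without WT replicate 1. In the double knockout the 2 that rose became 5, 0 and 1 without double knockout replicates 1, 2 and 3 and 1 without WT replicate 2. The 8 that fell became 4 without double knockout replicate 1, 4 without replicate 2 and 5 without WT replicate 3. Over all genes 28.98% were called in the double knockout, and 22.9%, 22.1% and 24.4% without its replicates 1, 2 and 3. The share was 23.3% and 20.97% without WT replicates 2 and 3. Without WT replicate 1 it rose to 30.997%, while the 8 members that fell became 6. Members also gained calls where the share over all genes dropped. Those that rose became 5 without double knockout replicate 1, and those that fell became 9 without its replicate 3. Without a block, 14 of the 84 genes were called in at least 1 line against WT, and the following paragraphs take them enzyme by enzyme.

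Of these 14 genes, 4 fell in the double knockout under every setting tried and with any library left out: Ndufv3, Ndufa11 and Ndufb11 of complex I and Cox6b2 of complex IV. Their promoters are shown for that reason, with that of Cox6b1, the broadly expressed counterpart of Cox6b2, for comparison. Each is the RefSeq window of 300 bases around the annotated start in GRCm38.p6: Ndufv3 at chr17:31519865-31520164 on the plus strand, Ndufa11 at chr17:56717512-56717811 on the plus strand, Ndufb11 at chrX:20617570-20617869 on the minus strand, Cox6b2 at chr7:4753045-4753344 on the minus strand and Cox6b1 at chr7:30626065-30626364 on the minus strand. Sequences run 5′ to 3′ on the gene's strand. Capitals mark matches, on either strand, to the motifs of factors known to act at respiratory genes: NRF1 (the palindrome GCGCA joined to TGCGC), GABPA (CCGGAAG) and YY1 (AAGATGGC).
Ndufv3: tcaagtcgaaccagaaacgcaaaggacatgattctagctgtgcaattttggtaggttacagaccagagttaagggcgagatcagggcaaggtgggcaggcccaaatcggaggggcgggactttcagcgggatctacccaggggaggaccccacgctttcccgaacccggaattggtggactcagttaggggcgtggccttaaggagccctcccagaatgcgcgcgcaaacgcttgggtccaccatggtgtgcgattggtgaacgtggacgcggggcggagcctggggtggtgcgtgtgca
Ndufa11: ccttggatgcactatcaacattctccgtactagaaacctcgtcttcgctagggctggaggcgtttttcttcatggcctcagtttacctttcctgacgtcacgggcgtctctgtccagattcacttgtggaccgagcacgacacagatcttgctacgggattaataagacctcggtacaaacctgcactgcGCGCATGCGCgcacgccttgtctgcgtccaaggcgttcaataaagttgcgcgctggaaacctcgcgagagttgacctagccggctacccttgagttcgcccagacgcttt
Ndufb11: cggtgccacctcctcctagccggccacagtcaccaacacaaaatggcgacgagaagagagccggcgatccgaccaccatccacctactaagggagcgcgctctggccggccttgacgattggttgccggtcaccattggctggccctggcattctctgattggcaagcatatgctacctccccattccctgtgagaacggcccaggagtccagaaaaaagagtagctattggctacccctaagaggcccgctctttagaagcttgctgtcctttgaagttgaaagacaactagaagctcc
Cox6b2: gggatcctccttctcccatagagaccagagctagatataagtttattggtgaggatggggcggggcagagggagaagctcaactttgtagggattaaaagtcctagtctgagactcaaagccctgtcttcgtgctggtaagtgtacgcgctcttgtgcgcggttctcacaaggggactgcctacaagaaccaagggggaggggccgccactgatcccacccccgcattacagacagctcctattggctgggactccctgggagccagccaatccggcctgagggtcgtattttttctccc
Cox6b1: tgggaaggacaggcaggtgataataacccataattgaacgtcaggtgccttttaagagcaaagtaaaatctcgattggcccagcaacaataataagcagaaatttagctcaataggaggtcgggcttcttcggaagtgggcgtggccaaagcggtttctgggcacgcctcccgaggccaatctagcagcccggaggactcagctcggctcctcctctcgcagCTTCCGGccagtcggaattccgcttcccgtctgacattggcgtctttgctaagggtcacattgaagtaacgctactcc
A match to the NRF1 palindrome lies in the Ndufa11 window and a match to the GABPA motif, on the opposite strand, in the Cox6b1 window. The windows of Ndufv3, Ndufb11 and Cox6b2 hold none of the 3 words.

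A promoter window was available for 69 of the 84 genes. The NRF1 palindrome was in 5 of them (7.25%), against 264 of 27025 windows of the same length over all genes (0.977%). GABPA was in 15 (21.7%), against 9.12% of all windows, and YY1 in 10 (14.5%), against 2.88%. At least 1 of the 3 was in 28 (40.6%), against 12.3% of all windows. The windows of all genes were not limited to expressed genes, and genes of like level were not compared. In WT 11662 of 23027 genes with a length stood under 1 CPM per kb. Besides Ndufa11, the NRF1 word was in the windows of Atp5g2, Atp5k, Cox6a1 and Uqcrc1. Of the other called genes with a window, Ndufs7 had the YY1 word, Ndufs3, Ndufb6 and Ndufb7 had the GABPA word, and Ndufa13, Uqcr10 and Atp5g1 had none. A match is a description of the letters and does not say that the factor binds.

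Complex I, the NADH dehydrogenase, held 34 of the 79 tested members and 10 of the 14 called genes. Its called shares were 23.5% in Hmgn1-/- and 17.6% in the double knockout, beside 28.4% and 28.98% of all genes. Of its 34 tested genes, 5 rose and 3 fell in Hmgn1-/-, 1 rose and 5 fell in the double knockout, and 0 rose or fell in Hmgn2-/- by edgeR, where 5 had an unadjusted p under 0.05 and DESeq2 called Ndufa13 and Ndufv3.

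Ndufv3 encodes an accessory subunit of the flavoprotein end of the enzyme, where NADH is oxidised. It stood at 50.5, 45.3 and 49.2 CPM in WT, at 34.6, 35.02 and 36.8 CPM in Hmgn1-/-, at 31.7, 31.5 and 45.7 CPM in Hmgn2-/- and at 30.2, 33.5 and 35.1 CPM in the double knockout. All Hmgn1-/- and double knockout libraries lay below all WT libraries, while Hmgn2-/- replicate 3 lay among the WT values. By edgeR's quasi-likelihood test, Benjamini-Hochberg adjusted, the log2 fold change was -0.45 in Hmgn1-/- (SE 0.0718, adjusted p 0.000329) and -0.56 in the double knockout (SE 0.0793, adjusted p 0.000129). In Hmgn2-/- it was -0.42 (SE 0.138, adjusted p 0.0563), and -0.62 without replicate 3, where it passed the threshold. Both single knockouts and the double knockout thus gave negative estimates, and the double knockout did not differ from either single knockout by the test (log2 differences -0.11 against Hmgn1-/-, adjusted p 0.766, and -0.13 against Hmgn2-/-, adjusted p 1.00).

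Ndufa11 encodes an accessory subunit that spans the membrane, and its promoter is the window with the NRF1 word. It stood at 97.4, 96.8 and 101 CPM in WT, at 74.7, 77.8 and 89.4 CPM in Hmgn1-/-, at 70.3, 74.9 and 96.7 CPM in Hmgn2-/- and at 70.1, 73.6 and 82.2 CPM in the double knockout. Every mutant library lay below every WT library, with Hmgn2-/- replicate 3 just under WT replicate 2. The log2 fold change was -0.29 in Hmgn1-/- (SE 0.0698, adjusted p 0.00598 by edgeR's quasi-likelihood test, Benjamini-Hochberg adjusted) and -0.39 in the double knockout (SE 0.0668, adjusted p 0.000567). For Hmgn2-/- it was -0.29 (adjusted p 0.105), and -0.44 and past the threshold without replicate 3.

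Ndufb11, an X-linked accessory gene of the membrane arm, gave the same picture. Its level was 88.8, 78.5 and 80.4 CPM in WT, 60.5, 64.7 and 69.7 CPM in Hmgn1-/-, 55.7, 66.6 and 79.3 CPM in Hmgn2-/- and 60.0, 62.3 and 68.7 CPM in the double knockout. Only Hmgn2-/- replicate 3 overlapped the WT range. By the same edgeR test with Benjamini-Hochberg adjustment, Ndufb11 fell by 0.35 on the log2 scale in Hmgn1-/- (SE 0.0717, adjusted p 0.00212) and fell by 0.38 in the double knockout (SE 0.0716, adjusted p 0.00118). In Hmgn2-/- the estimate was -0.30 (adjusted p 0.115), and -0.44 and past the threshold without replicate 3.

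Ndufa13, also known as Grim19, encodes an accessory subunit at the junction of the membrane and peripheral arms, and it moved the other way. It stood at 70.8, 64.2 and 68.3 CPM in WT, at 79.4, 84.1 and 85.3 CPM in Hmgn1-/-, at 73.7, 81.9 and 107 CPM in Hmgn2-/- and at 73.5, 88.3 and 89.2 CPM in the double knockout. Every mutant library exceeded every WT library. By edgeR's quasi-likelihood test, Benjamini-Hochberg adjusted, it rose by 0.28 on the log2 scale in Hmgn1-/- (SE 0.0630, adjusted p 0.00381) and by 0.30 in the double knockout (SE 0.0786, adjusted p 0.0118), and was 0.37 higher in Hmgn2-/- (SE 0.126, adjusted p 0.0659), or 0.20 higher without replicate 3. The Hmgn1-/- call was lost in a single fit of all 12 libraries (adjusted p 0.0824, in a range of 0.000836 to 0.0824 over all settings). The double knockout call was lost without double knockout replicate 2 (adjusted p 0.0667) or replicate 3 (0.0553) and in the single fit of all 12 libraries (0.0708), in a range of 0.00144 to 0.0708 over all settings.

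A further 4 complex I genes rose in Hmgn1-/-. Ndufs7, which holds the last iron-sulphur cluster before coenzyme Q, stood at 82.1, 92.4 and 85.2 CPM in WT and at 99.02, 102 and 105 CPM in Hmgn1-/-, with no overlap (log2 fold change 0.23, SE 0.0624, adjusted p 0.0124 by edgeR with Benjamini-Hochberg adjustment). Its 3 libraries were at 98.7, 94.8 and 120 CPM in Hmgn2-/- and at 90.99, 92.5 and 100.1 CPM in the double knockout, where it was not called. The Hmgn1-/- call was lost without WT replicate 3 (adjusted p 0.0598) and in the single fit of all 12 libraries (0.0574, in a range of 0.00273 to 0.0598 over all settings).

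Ndufs1, the largest core subunit, which relays electrons through several clusters, varied little between replicates. It stood at 118, 119 and 118 CPM in WT, at 132, 131 and 137 CPM in Hmgn1-/-, at 124, 131 and 136 CPM in Hmgn2-/- and at 129, 130 and 135 CPM in the double knockout. All 9 mutant libraries exceeded all 3 WT libraries. The log2 fold change was 0.17 in Hmgn1-/- (SE 0.0530, adjusted p 0.0305 by edgeR with Benjamini-Hochberg adjustment), 0.14 in Hmgn2-/- (adjusted p 0.220) and 0.14 in the double knockout (adjusted p 0.0597, and 0.0485 with replicate number as a block). The Hmgn1-/- call was lost without Hmgn1-/- replicates 1, 2 or 3 (adjusted p 0.0542, 0.0791 and 0.0881) and without WT replicates 2 or 3 (0.0691 and 0.125), and with library totals (0.0572), with a low of 0.0197 over all settings.

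Ndufb7, an accessory subunit on the intermembrane space side, and Ndufs3, a core subunit next to the quinone site, passed narrowly in Hmgn1-/-. Ndufb7 stood at 73.2, 67.1 and 73.5 CPM in WT and at 76.3, 82.0 and 88.7 CPM in Hmgn1-/- (log2 fold change 0.20, SE 0.0694, adjusted p 0.0434 by edgeR with Benjamini-Hochberg adjustment). Ndufs3 stood at 69.5, 68.5 and 64.9 CPM in WT and at 73.6, 77.6 and 78.9 CPM in Hmgn1-/- (0.18, SE 0.0620, adjusted p 0.0473). The groups did not overlap for either gene, and neither was called in the other lines. Without Hmgn1-/- replicates 2 or 3 or WT replicates 2 or 3, the adjusted p of Ndufb7 was 0.115, 0.172, 0.153 and 0.0792, in a range of 0.0147 to 0.251 over all settings. For Ndufs3 it was 0.151, 0.128, 0.0831 and 0.211 without the same libraries, in a range of 0.0288 to 0.211. Of 10 other settings the Ndufb7 call was kept in 5 and the Ndufs3 call in 1, with losses for Ndufs3 by DESeq2 (0.0626), in the single fit (0.200), and with every other scaling, filter and depth tried.

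Ndufb9 and Ndufb6, accessory subunits of the membrane arm, fell in the double knockout. Ndufb9 stood at 75.6, 71.9 and 75.9 CPM in WT, at 63.8, 66.7 and 73.0 CPM in Hmgn1-/-, at 58.0, 66.5 and 82.3 CPM in Hmgn2-/- and at 59.8, 62.9 and 71.2 CPM in the double knockout. Ndufb6 stood at 55.3, 58.9 and 59.7 CPM in WT, at 49.8, 49.8 and 54.6 CPM in Hmgn1-/-, at 49.8, 49.8 and 57.6 CPM in Hmgn2-/- and at 49.2, 52.6 and 50.7 CPM in the double knockout. All double knockout libraries lay below all WT libraries for both genes, and with replicate number as a block Ndufb6 was called in Hmgn1-/- too (-0.18, adjusted p 0.0341). The log2 fold changes were -0.21 for Ndufb9 (SE 0.0714, adjusted p 0.0403 by edgeR with Benjamini-Hochberg adjustment) and -0.19 for Ndufb6 (SE 0.0663, adjusted p 0.0413). Without double knockout replicates 1 or 2 or WT replicates 1, 2 or 3, the adjusted p of Ndufb9 was 0.148, 0.137, 0.0523, 0.0576 and 0.119. Ndufb6 gave 0.112, 0.0652 and 0.0955 without double knockout replicates 1, 2 or 3, and 0.116 and 0.140 without WT replicates 2 or 3. The single fit of all 12 libraries gave 0.156 for Ndufb9 and 0.0636 for Ndufb6, thinned counts gave 0.0586 for Ndufb9, and DESeq2 and no filter beyond 1 count gave 0.0614 and 0.0566 for Ndufb6. Over all settings the adjusted p reached as low as 0.0122 for Ndufb9 and 0.0187 for Ndufb6. Without Hmgn2-/- replicate 3, Ndufb9 was also called in Hmgn2-/-, at -0.26.

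**Figure D4:**
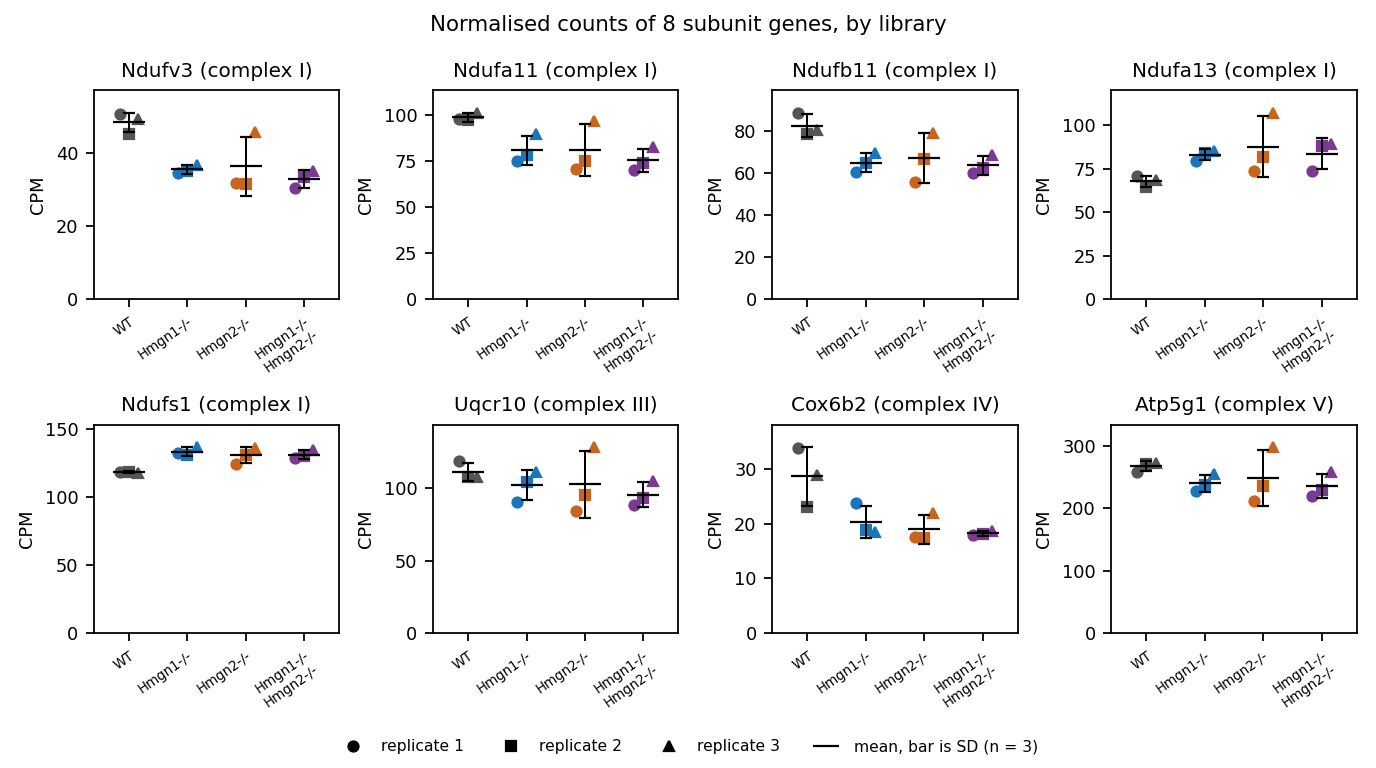
Normalised counts (CPM) of 8 called genes in every library, with the mean and SD of each group of 3. Ndufv3, Ndufa11, Ndufb11 and Cox6b2 are lower in Hmgn1-/- and the double knockout than in WT, apart from 1 Hmgn1-/- library of Cox6b2, and Ndufa13 and Ndufs1 are higher.

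Complex II, succinate dehydrogenase, is encoded in the nucleus alone and also serves the citric acid cycle. By edgeR 0 of its 4 genes were called in any line, where 28.4%, 18.9% and 28.98% of all genes were in Hmgn1-/-, Hmgn2-/- and the double knockout. DESeq2 called 0 as well, and 1 gene had an unadjusted p under 0.05 in Hmgn1-/-, 0 in Hmgn2-/- and 1 in the double knockout. The first was Sdha, the flavoprotein that oxidises succinate, at 260, 249 and 245 CPM in WT and at 272, 275 and 274 CPM in Hmgn1-/- (log2 fold change 0.12, SE 0.0511, adjusted p 0.102). The second was Sdhd, a membrane anchor, at 144, 134 and 132 CPM in WT and at 147, 149 and 160 CPM in the double knockout (0.15, SE 0.0588, adjusted p 0.0759). Libraries did not overlap with WT in either case. All 4 genes had estimates above 0 in all 3 lines, from 0.03 to 0.18, relative to medians of all genes of at most 0.01.

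Complex III, the cytochrome bc1 complex, had 8 tested genes and a single call, or 0%, 0% and 12.5% in Hmgn1-/-, Hmgn2-/- and the double knockout. Of all genes 28.4%, 18.9% and 28.98% were called. Uqcr10, a small subunit without a redox centre, stood at 119, 108 and 108 CPM in WT, at 90.7, 104 and 111 CPM in Hmgn1-/-, at 84.6, 95.3 and 129 CPM in Hmgn2-/- and at 88.3, 93.5 and 105 CPM in the double knockout. The double knockout lay below WT in all libraries, while both single knockouts overlapped WT. Its log2 fold change in the double knockout was -0.23 (SE 0.0716, adjusted p 0.0286 by edgeR with Benjamini-Hochberg adjustment). That call was lost without double knockout replicate 1 (adjusted p 0.115), double knockout replicate 2 (0.106) or WT replicate 1 (0.0613) and in the single fit of all 12 libraries (0.195), in a range of 0.00999 to 0.195 over all settings. Without Hmgn2-/- replicate 3, Uqcr10 also passed the threshold in Hmgn2-/-, at -0.31.

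Complex IV, cytochrome c oxidase, is the enzyme in which several nuclear subunits come in tissue or stage isoforms. Of its 16 tested genes, 1 fell in Hmgn1-/-, 1 fell in Hmgn2-/-, and in the double knockout 1 rose and 1 fell, or 6.25%, 6.25% and 12.5%, beside 28.4%, 18.9% and 28.98% of all genes. The gene that fell was Cox6b2 in all 3 lines, the testis-enriched form of a subunit on the intermembrane space side, and the gene that rose was Cox4i2, the lung-enriched form of subunit 4.

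Cox6b2 stood at 33.8, 23.1 and 28.9 CPM in WT, at 23.7, 18.9 and 18.5 CPM in Hmgn1-/-, at 17.5, 17.3 and 22.0 CPM in Hmgn2-/- and at 17.8, 18.1 and 18.7 CPM in the double knockout. Hmgn2-/- and the double knockout lay below WT in every library, and Hmgn1-/- replicate 1 lay above WT replicate 2. WT itself varied by more than the mutant groups, between 23.1 and 33.8 CPM. By edgeR's quasi-likelihood test, Benjamini-Hochberg adjusted, the log2 fold change was -0.50 in Hmgn1-/- (SE 0.132, adjusted p 0.0111), -0.60 in Hmgn2-/- (SE 0.148, adjusted p 0.0152) and -0.67 in the double knockout (SE 0.117, adjusted p 0.000767). The Hmgn1-/- call was lost without Hmgn1-/- replicate 3 (adjusted p 0.0539, in a range of 7.78e-05 to 0.0539 over all settings). In Hmgn2-/- it was lost without Hmgn2-/- replicate 2 (0.0757), WT replicate 1 (0.0529) or WT replicate 3 (0.0543), in a range of 0.00202 to 0.0757.

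Its broadly expressed counterpart Cox6b1 was not called. It stood at 123, 121 and 127 CPM in WT, at 114, 128 and 131 CPM in Hmgn1-/-, at 103, 116 and 153 CPM in Hmgn2-/- and at 107, 116 and 132 CPM in the double knockout, and all groups overlapped. Per transcript length, Cox6b2 made up 23.5%, 17.6% and 20.3% of the pair in WT, 18.9%, 14.1% and 13.6% in Hmgn1-/-, 15.9%, 14.3% and 13.9% in Hmgn2-/- and 15.7%, 14.8% and 13.7% in the double knockout. Its share was thus below every WT library in all Hmgn2-/- and double knockout libraries, and in Hmgn1-/- apart from replicate 1.

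Cox4i2 was a rare transcript, with 16 to 55 counts per library. It stood at 0.718, 0.896 and 1.28 CPM in WT, at 0.999, 1.00 and 1.15 CPM in Hmgn1-/-, at 1.77, 1.25 and 2.56 CPM in Hmgn2-/- and at 1.76, 2.03 and 1.79 CPM in the double knockout. The double knockout exceeded WT in all libraries, Hmgn1-/- lay within the WT range and Hmgn2-/- overlapped it. In the double knockout the log2 fold change was 0.93 (SE 0.272, adjusted p 0.0192 by edgeR with Benjamini-Hochberg adjustment), and in Hmgn2-/- it was 0.91 (SE 0.334, adjusted p 0.0857), or 0.64 without replicate 3. The double knockout call was lost without double knockout replicate 2 (adjusted p 0.0658), WT replicate 1 (0.0676) or WT replicate 2 (0.0570), in a range of 0.0120 to 0.0676 over all settings. Even so, Cox4i2 was at most 0.407% of the Cox4i1 and Cox4i2 pair per length in any library. Cox4i1 stood at 465, 471 and 489 CPM in WT and was not called in any line.

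Of the other isoform sets, Cox7a1, the heart and muscle form of subunit 7a, and Ndufa4l2, a hypoxia-induced paralog of Ndufa4, were low and variable. Cox7a1 had 31 to 113 counts per library and made up 3.42%, 1.90% and 1.97% of its set per length in WT, 3.23%, 2.36% and 2.92% in Hmgn1-/-, 2.81%, 2.55% and 3.59% in Hmgn2-/- and 3.53%, 3.16% and 4.13% in the double knockout. Its log2 fold change in the double knockout was 0.53 (SE 0.250, adjusted p 0.135), and the groups overlapped. Ndufa4l2, with 14 to 212 counts, stood at 6.62, 0.784 and 1.70 CPM in WT, at 3.38, 1.67 and 0.919 CPM in Hmgn1-/-, at 3.12, 2.31 and 4.58 CPM in Hmgn2-/- and at 1.35, 1.58 and 1.98 CPM in the double knockout. WT replicate 1 held the highest and WT replicate 2 the lowest of these values, and Ndufa4l2 was not called against WT in any line.

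**Figure D5:**
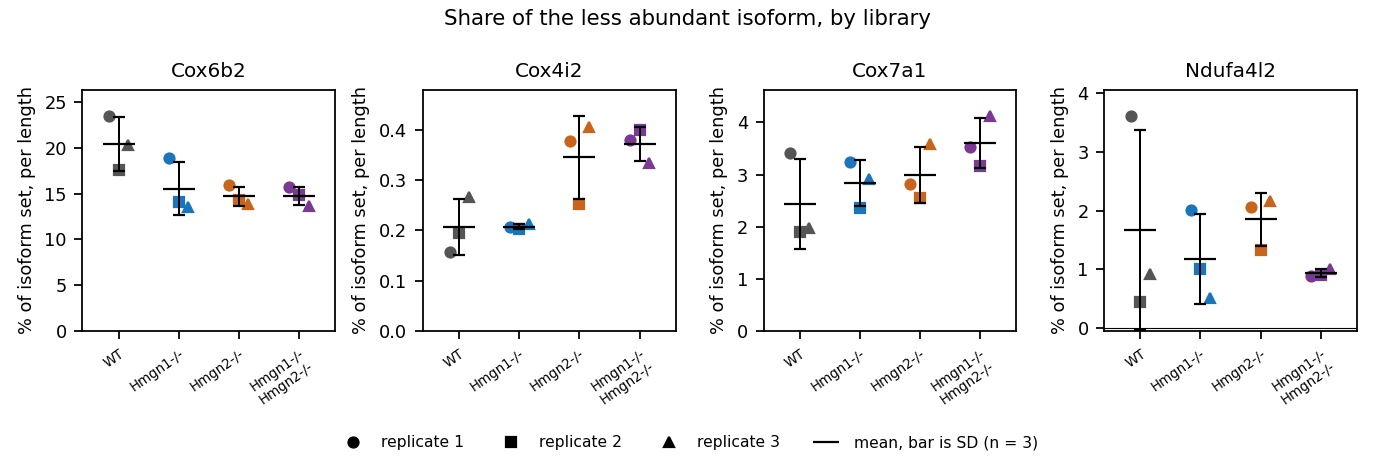
Share of the less abundant isoform in its set per transcript length, in percent, for Cox6b2, Cox4i2, Cox7a1 and Ndufa4l2 in every library, with the mean and SD of each group of 3. Cox6b2 averages 20.5% in WT and 14.7% in the double knockout, and Cox4i2 is at most 0.407%.

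Complex V, the ATP synthase, had 15 tested genes and a single called gene, or 6.67%, 0% and 6.67% in Hmgn1-/-, Hmgn2-/- and the double knockout. Of all genes 28.4%, 18.9% and 28.98% were called. Atp5g1 is 1 of 3 genes for the c subunit, whose ring turns as protons pass. It stood at 259, 271 and 273 CPM in WT, at 228, 238 and 255 CPM in Hmgn1-/-, at 212, 235 and 299 CPM in Hmgn2-/- and at 220.2, 230.0 and 258 CPM in the double knockout. Hmgn1-/- and double knockout libraries were all below WT replicate 1, the lowest WT library. By edgeR's quasi-likelihood test, Benjamini-Hochberg adjusted, it fell by 0.16 on the log2 scale in Hmgn1-/- (SE 0.0563, adjusted p 0.0457) and fell by 0.19 in the double knockout (SE 0.0620, adjusted p 0.0350). The Hmgn1-/- call was lost without Hmgn1-/- replicates 1 or 2 (adjusted p 0.167 and 0.130) or WT replicates 2 or 3 (0.127 and 0.162), by DESeq2 (0.0516), in the single fit of all 12 libraries (0.257) and with thinned counts (0.103), in a range of 0.0156 to 0.257 over all settings. That of the double knockout was lost without double knockout replicates 1 or 2 (0.129 and 0.134) or WT replicates 2 or 3 (0.0981 and 0.114), in the single fit (0.179) and with thinned counts (0.0651), in a range of 0.00891 to 0.179. Without Hmgn2-/- replicate 3, Atp5g1 also passed the threshold in Hmgn2-/-, at -0.26.

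The other c subunit genes, Atp5g2 and Atp5g3, were not called. Per transcript length Atp5g1 made up 5.70%, 6.29% and 6.29% of the 3 genes in WT, 5.46%, 5.32% and 5.48% in Hmgn1-/-, 5.30%, 5.48% and 5.83% in Hmgn2-/- and 5.60%, 5.26% and 5.59% in the double knockout. All Hmgn1-/- and double knockout shares lay below all WT shares. Length matters for this set: Atp5g1 was at 56.8 CPM per kb in WT by its transcript length but at 656 CPM per kb by its coding length. The catalytic beta subunit gene Atp5b, the most abundant member, was at 2023, 2021 and 2011 CPM in WT and at 2160.4, 2212 and 2292 CPM in Hmgn1-/- (log2 fold change 0.13, adjusted p 0.0543, and 0.0450 with replicate number as a block).

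Direct tests between mutant lines, which use no WT library, ask whether loss of both proteins differs from loss of either. Between Hmgn2-/- and Hmgn1-/- 0 of 79 members differed by edgeR, where 0.469% of all genes did. There DESeq2 called 0, and Cox4i2 was the 1 member with an unadjusted p under 0.05 (log2 difference 0.79, SE 0.296). Between the double knockout and Hmgn1-/- 1 of 79 members differed, where 1.82% of all genes did, and DESeq2 called 1 as well. An unadjusted p under 0.05 was found for 2 members. Cox4i2 was higher in the double knockout but not called (log2 difference 0.82, SE 0.237, adjusted p 0.134, and 0.0685 with replicate number as a block). The called member was Atp5sl, listed by RefSeq as Dmac2, which helps assemble the membrane arm of complex I and is not a subunit of complex V. Atp5sl stood at 44.6, 43.5 and 42.7 CPM in WT, at 49.1, 51.4 and 47.5 CPM in Hmgn1-/-, at 41.1, 46.1 and 45.6 CPM in Hmgn2-/- and at 39.2, 42.0 and 39.9 CPM in the double knockout. Hmgn1-/- was the highest group and the double knockout the lowest, with a log2 difference of -0.29 between them (SE 0.0680, adjusted p 0.0424 by edgeR with Benjamini-Hochberg adjustment). Leaving out any 1 of the 6 libraries took the count to 0.

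Between the double knockout and Hmgn2-/- 0 of 79 members differed by edgeR, where 0.261% of all genes did, and DESeq2 called 0. Ndufa4l2 was the 1 member with an unadjusted p under 0.05 (log2 difference -1.0, SE 0.275, adjusted p 0.452). With replicate number as a block it was called, at -1.02 (adjusted p 0.0325). In these direct tests the 95% interval lay within 1.5-fold for 76, 76 and 75 of 79 members, in the order given.

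Genes that build or feed the respiratory chain were taken from fixed lists. Of all genes tested, 28.4%, 18.9% and 28.98% were called in Hmgn1-/-, Hmgn2-/- and the double knockout, which bears on every count below. Of 52 assembly factors 43 were in the table and 41 were tested. In Hmgn1-/- 1 rose (Acad9, a complex I assembly factor, log2 fold change 0.19) and 1 fell (Coa4, which serves complex IV, -0.37). In Hmgn2-/- edgeR called 0, with 2 at an unadjusted p under 0.05. In the double knockout Acad9 rose (0.22) and Ndufaf4 (-0.27), Ndufaf6 (-0.26) and Cmc1 (-0.38) fell, while Coa4 was at -0.41 (adjusted p 0.0505, and 0.0290 with replicate number as a block). The 26 symbols listed for genes of mitochondrial DNA, subunits of complexes I, III, IV and V, matched 0 genes of the table, so they were not analysed here.

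Mobile carriers and coenzyme Q enzymes link the complexes, and 20 of them were tested. In Hmgn1-/- 2 rose and 3 fell, in Hmgn2-/- 2 rose and 1 fell, and in the double knockout 2 rose and 2 fell. Coq9 and Coq2, which act in coenzyme Q synthesis, rose in all 3 lines (Coq9 0.47, 0.46 and 0.41, Coq2 0.37, 0.46 and 0.31 in Hmgn1-/-, Hmgn2-/- and the double knockout). Cyct, the testis form of cytochrome c, fell in all 3 (-0.57, -0.93 and -0.92). Etfb, part of the flavoprotein that brings electrons from fatty acid oxidation, fell in Hmgn1-/- (-0.29) and the double knockout (-0.35).

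Of 18 tested regulators of mitochondrial biogenesis, 3 rose in Hmgn1-/-, 2 in Hmgn2-/- and 5 in the double knockout, where 13.3%, 7.63% and 13.5% of all genes rose, and 0 fell in any line by edgeR. Esrrb, an orphan receptor with roles in pluripotency and metabolism, rose by 0.47, 0.32 and 0.28 on the log2 scale, and Myc rose by 0.36, 0.44 and 0.49. Ppargc1b, a coactivator, rose in the double knockout (0.45), and Gabpb1, the partner of GABPA, in Hmgn1-/- (0.22). Ppargc1b was at 0.41 in Hmgn1-/- (adjusted p 0.0548, and 0.00824 with replicate number as a block) and Gabpb1 at 0.19 in the double knockout (0.0517, and 0.0337 with the block). Pprc1 rose in the double knockout (0.18) and was at 0.18 in Hmgn1-/- (adjusted p 0.0763 by edgeR, and 0.0224 with the block). The medians of the list were 0.10, 0.07 and 0.09. Of 19 citric acid cycle genes, 4 rose and 1 fell in Hmgn1-/-, 2 rose and 2 fell in Hmgn2-/- and 5 rose and 2 fell in the double knockout. Pcx was at -0.23 in Hmgn1-/- (adjusted p 0.0543 by edgeR, and 0.0274 with replicate number as a block). Suclg2, a subunit of succinyl-CoA ligase, rose by 0.53, 0.47 and 0.47, Dlat of pyruvate dehydrogenase rose by 0.25, 0.30 and 0.33, and Idh2 changed by -0.46, -0.40 and -0.42.

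Glycolysis is the other main source of ATP. Of 25 tested genes, 2 rose and 7 fell in Hmgn1-/-, 2 rose and 3 fell in Hmgn2-/- and 4 rose and 11 fell in the double knockout, or 36%, 20% and 60% called, beside 28.4%, 18.9% and 28.98% of all genes. Ldhb, a lactate dehydrogenase subunit, changed by -1.13, -1.30 and -1.58, and Slc16a3, a lactate exporter, by -0.92, -0.70 and -0.89. Pdk1, a kinase that restrains entry of pyruvate into mitochondria, rose by 0.73, 0.76 and 0.61. The list's median change was -0.10, -0.05 and -0.21, and no test compared it with the respiratory genes.

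Of 18 genes of the mitochondrial stress response, 7 rose in Hmgn1-/- and 7 in Hmgn2-/-, and 8 of 17 tested rose in the double knockout, where 13.3%, 7.63% and 13.5% of all genes rose, while 0 fell in any line by edgeR. At an unadjusted p under 0.05 there were 7, 7 and 8 genes. Atf4, a transcription factor of this list, rose by 0.37, 0.50 and 0.39, Atf5 by 0.48, 0.53 and 0.41, and the folate enzyme gene Mthfd2 by 0.37, 0.51 and 0.41. Whether mitochondria were under stress was not tested.

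Genes of both ribosomes, which like the respiratory genes are short and abundant, were taken as well. Of 76 mitochondrial ribosomal protein genes, 6 rose and 3 fell in Hmgn1-/-, 3 rose and 0 fell in Hmgn2-/- and 5 rose and 1 fell in the double knockout. Mrps31 rose in all 3 lines (0.42, 0.44 and 0.41), and Mrps24 fell in Hmgn1-/- (-0.28) and the double knockout (-0.38). Of 83 tested cytoplasmic ribosomal protein genes, 1 rose and 4 fell in Hmgn1-/-, 0 rose and 2 fell in Hmgn2-/- and 1 rose and 8 fell in the double knockout. In Hmgn2-/- 5 of the mitochondrial and 4 of the cytoplasmic genes had an unadjusted p under 0.05.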

How the data were processed

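The deposited counts are whole numbers per gene, which the authors made from poly-A RNA reads of 12 libraries, 3 for each of 4 groups. The submitters' processing notes name STAR, DESeq2 and the mm10 build. The counting program, its annotation and its strand setting were not given.

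From the counts, R 4.3.3 with edgeR 4.0.16 computed library scaling by trimmed means of M values, kept genes by filterByExpr with its defaults, and ran quasi-likelihood tests on the 6 libraries of each of 6 comparisons, with Benjamini-Hochberg adjustment over all genes tested. A gene was called at an adjusted p under 0.05. Intervals are 95% intervals of the fit. The scripts were tested on simulated data. Levels per length used the principal transcript (APPRIS) of each gene in GENCODE release M21, and symbols were matched to RefSeq genes of GRCm38.

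Alternatives were DESeq2 1.42.0, 3 other scalings (RLE, upper quartile, library totals), a stricter filter of at least 10 counts per library, no filter beyond 1 count, a single fit of all 12 libraries, a threshold of 0.01 for the adjusted p, counts thinned to the smallest library, a block for replicate number, each library left out in turn, and coding length in place of transcript length.

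The labels give replicate numbers without saying what a number shares. Deviations from group means, over 11555 genes with a mean count of at least 50, had a correlation above 0.1 for every number in 4 of 6 comparisons, which were taken as paired: Hmgn1-/- against WT (lowest 0.1425), the double knockout against WT (0.192), Hmgn2-/- against Hmgn1-/- (0.2115) and the double knockout against Hmgn2-/- (0.1787). The tests used no block, and the block is given as an alternative.

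Genes named in full were, in each complex, up to 4 called members with the smallest p, the isoform sets, the most abundant member per length in WT, and members past the study's limits (0 genes). Any other member could be named, as members are the subject. In each other list these were up to 5 called genes with the smallest p, and in marker lists the most abundant gene. Lum, Dcn and Lyz2 were named after their values were seen. The members and the lists were chosen with earlier results of these data known. The 26 symbols listed for subunits encoded in mitochondrial DNA matched no gene of the count table.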

Additional observations from a re-analysis of the deposited data

Results flagged for a closer look

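Without a block, Atp5sl is the 1 member whose change differed between groups by a direct test. With replicate number as a block, Ndufa4l2 was called between the double knockout and Hmgn2-/-. The log2 difference of Atp5sl between the double knockout and Hmgn1-/- was -0.29 (adjusted p 0.0424 by edgeR with Benjamini-Hochberg adjustment, and 0.0165 by DESeq2). The call was lost with upper quartile scaling, with library totals, in the single fit of all 12 libraries, at an adjusted p under 0.01 and without any 1 of the 6 libraries. The cause of the difference was not tested.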

How the results depend on the processing

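No called log2 fold change of a named member against WT changed sign under any alternative. The direct tests between mutant lines are not among these values. Of 522 log2 fold changes of named members with a library left out, 457 stayed on their side of the threshold, 44 lost a call and 21 gained one. Of 870 under the other alternatives, 807 stayed, 40 lost a call and 23 gained one. Among members that were not called, the sign changed in 49 and 20 of these values. The calls of Ndufv3, Ndufa11 and Ndufb11 in Hmgn1-/- and the double knockout and of Cox6b2 in the double knockout were kept throughout. No member passed the study's limits under any alternative, and those counts stayed at 0.

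The 5 members higher in Hmgn1-/- became 9 with the replicate block, 3 with at least 10 counts in every library, 3 with upper quartile scaling, 2 with library totals, 1 in the single fit of all 12 libraries and 1 at an adjusted p under 0.01, and ranged from 1 to 9 with a library left out. The 5 members lower in Hmgn1-/- became 3 at an adjusted p under 0.01, and 4 to 7 with a library left out. The cause was not tested.

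The 0 members higher in Hmgn2-/- became 1 with DESeq2, 1 with no filter beyond 1 count, 1 with the replicate block and 3 in the single fit of all 12 libraries, and ranged from 0 to 2 with a library left out. The 1 member lower in Hmgn2-/- became 2 with DESeq2, 2 with counts thinned to the smallest library, 2 with library totals, 2 with no filter beyond 1 count, 2 with the replicate block, 4 in the single fit of all 12 libraries and 0 at an adjusted p under 0.01, and ranged from 0 to 10 with a library left out. The cause was not tested.

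The 2 members higher in the double knockout than in WT became 1 in the single fit of all 12 libraries and 0 at an adjusted p under 0.01, and ranged from 0 to 5 with a library left out. The 8 members lower became 4 in the single fit of all 12 libraries and 4 at an adjusted p under 0.01, and ranged from 4 to 9 with a library left out. The cause was not tested.

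Between the double knockout and Hmgn1-/-, the 1 differing member became 0 in the single fit of all 12 libraries, with library totals, with upper quartile scaling, at an adjusted p under 0.01 and with any library left out. Between the double knockout and Hmgn2-/-, the 0 became 1 with the replicate block. The cause was not tested.

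In 2 of 6 comparisons the replicate numbers were not taken as paired, Hmgn2-/- against WT (lowest correlation 0.0797) and the double knockout against Hmgn1-/- (0.0714). In the first, the replicate block added Cox4i2 (adjusted p 0.0415) and Ndufv3 (0.0347) to the calls. Among members lower than in WT, and besides the calls given in the report, the replicate block added Cox6c lower in Hmgn1-/- (adjusted p 0.0439) and Cox6c (0.0459) and Ndufb4 (0.0423) lower in the double knockout. It ended no call of a member against WT.

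With 3 libraries in a group and 1 clone for each genotype, the tests compare these lines and do not separate genotype from clone. Counts of genes that share sequence depend on how reads with several matches were handled, which was not given. Genes with few counts, such as Cox4i2 and Ndufa4l2, have wide intervals, and members at or near 0 counts were not tested.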

Other observations

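Rpl39l and Rpl10l, 2 of the cytoplasmic ribosomal protein genes, fell in all 3 mutant lines, and they were chosen after their values were seen. Rpl39l stood at 11.6, 10.7 and 10.1 CPM in WT, 3.46, 5.64 and 4.46 CPM in Hmgn1-/-, 3.003, 3.07 and 4.28 CPM in Hmgn2-/- and 2.79, 3.43 and 3.39 CPM in the double knockout. Its log2 fold changes were -1.28, -1.67 and -1.77 (adjusted p 6.22e-05, 7.05e-05 and 8.28e-07 by edgeR with Benjamini-Hochberg adjustment). Rpl10l stood at 41.9, 42.1 and 38.6 CPM in WT, 27.9, 35.6 and 34.6 CPM in Hmgn1-/-, 29.9, 34.4 and 30.7 CPM in Hmgn2-/- and 28.6, 30.7 and 31.7 CPM in the double knockout. Its log2 fold changes were -0.33, -0.37 and -0.44 (adjusted p 0.0178, 0.0188 and 0.000776). For both genes every mutant library lay below every WT library.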
